A study of Mus musculus with 30 samples.

Results

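The 41 genes described here are interferon-stimulated genes, taken as the rows of 5 count tables whose gene identifiers match a list of mouse symbols. They make up 41 of the 48709 genes in each table. The list was drawn up because several of these genes had been seen to be higher together in the heterozygous tissues of these same data, so every heterozygous against WT value below is a description and carries no test. The tissues sequenced were brain, kidney, liver, muscle (quadriceps femoris) and spleen of adult C57BL/6 mice. The WT group is wild type, and the heterozygous group is Ctcf+/-, with 1 functional copy of the gene for the chromatin architecture protein CTCF in the whole animal. Each tissue had 3 WT and 3 heterozygous libraries, 30 in all, and no treatment or infection is named in the labels. The series text gives 3 mice per genotype and 5 tissues from each, but the labels do not say that a replicate number marks the same mouse in every tissue.

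Interferons are cytokines that cells release when they sense viral nucleic acid. Type I interferon binds a receptor found on nearly every cell, and the receptor's kinases act through STAT2 and IRF9, parts of the transcription factor ISGF3. ISGF3 binds the interferon-stimulated response element (ISRE) in the promoters of its targets, whose products degrade viral RNA, block translation, trap virions or feed back on the pathway. Many of these genes keep a low level of transcription in healthy tissue.

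Promoter sequence was available for 32 of the 41 members, in RefSeq windows of 250 bases before to 50 bases after the transcription start (GRCm38.p6). The core letters of the ISRE, GAAA and GAAA separated by any 2 bases and searched on both strands, occurred in 15 of those 32 members (46.9%) and in 1079 of 27025 genes with a window (3.99%). The 15 were Apol9a, Apol9b, Bst2, Eif2ak2, Ifih1, Ifit1, Ifit3, Ifit3b, Isg15, Oas1a, Oas3, Phf11b, Rsad2, Stat2 and Trim30a. A second element, the GAS letters TTCNNNGAA of interferon gamma targets, occurred in 5 of the 32 members (15.6%) and in 9.55% of all genes with a window. A match is a description of letters, and a window without one shows only that these letters are not in it. The 6 windows below belong to members named in the genotype values, and all 6 hold a match. The windows of Irf7, Phf11d, Ifi44, Oasl1 and Ifi35, members also given library values there, hold 0 matches. The 6 windows are printed 5′ to 3′ on the gene's strand, with every ISRE match in capitals. Capitals that begin TTTC are matches on the opposite strand. The Isg15 window (chr4:156200769-156201068, minus strand) holds 3 overlapping matches that start 78 to 66 bases before the transcription start. The Ifit3 window (chr19:34583279-34583578, plus strand) and the Ifit3b window (chr19:34607707-34608006, plus strand) each hold 2 matches, and in both the matches start 34 bases apart. The Ifit1 window (chr19:34640639-34640938, plus strand) holds 2 matches that start 19 bases apart. The windows of the paralogues Apol9a (chr15:77411031-77411330, minus strand) and Apol9b (chr15:77728822-77729121, plus strand) each hold 2 overlapping matches that start 6 bases apart.
Isg15: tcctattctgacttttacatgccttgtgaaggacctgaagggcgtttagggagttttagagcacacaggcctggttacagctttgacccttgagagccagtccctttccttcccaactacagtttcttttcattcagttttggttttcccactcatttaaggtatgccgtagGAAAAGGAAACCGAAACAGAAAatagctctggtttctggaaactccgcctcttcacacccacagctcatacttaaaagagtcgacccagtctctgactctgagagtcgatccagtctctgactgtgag
Ifit1: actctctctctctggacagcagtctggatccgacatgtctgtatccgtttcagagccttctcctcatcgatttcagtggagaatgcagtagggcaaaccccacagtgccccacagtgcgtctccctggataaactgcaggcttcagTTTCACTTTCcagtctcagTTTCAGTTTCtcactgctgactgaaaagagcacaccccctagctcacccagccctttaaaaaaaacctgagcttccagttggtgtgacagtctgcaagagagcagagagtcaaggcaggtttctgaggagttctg
Ifit3: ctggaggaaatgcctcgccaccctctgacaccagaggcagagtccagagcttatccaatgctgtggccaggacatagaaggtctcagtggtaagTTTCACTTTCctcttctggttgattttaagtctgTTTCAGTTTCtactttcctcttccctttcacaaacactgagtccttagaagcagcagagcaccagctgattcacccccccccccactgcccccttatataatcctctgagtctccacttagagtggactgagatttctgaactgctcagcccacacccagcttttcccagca
Ifit3b: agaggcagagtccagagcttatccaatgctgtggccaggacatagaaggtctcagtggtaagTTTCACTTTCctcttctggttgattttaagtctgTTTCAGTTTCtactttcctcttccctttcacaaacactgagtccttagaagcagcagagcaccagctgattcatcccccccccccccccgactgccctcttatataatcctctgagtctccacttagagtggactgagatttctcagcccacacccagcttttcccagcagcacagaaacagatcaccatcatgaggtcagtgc
Apol9a: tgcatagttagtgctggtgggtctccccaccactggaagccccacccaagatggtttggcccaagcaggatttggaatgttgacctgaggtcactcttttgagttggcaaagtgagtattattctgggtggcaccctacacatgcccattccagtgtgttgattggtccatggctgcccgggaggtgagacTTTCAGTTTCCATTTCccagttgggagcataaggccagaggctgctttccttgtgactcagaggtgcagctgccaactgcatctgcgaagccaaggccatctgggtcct
Apol9b: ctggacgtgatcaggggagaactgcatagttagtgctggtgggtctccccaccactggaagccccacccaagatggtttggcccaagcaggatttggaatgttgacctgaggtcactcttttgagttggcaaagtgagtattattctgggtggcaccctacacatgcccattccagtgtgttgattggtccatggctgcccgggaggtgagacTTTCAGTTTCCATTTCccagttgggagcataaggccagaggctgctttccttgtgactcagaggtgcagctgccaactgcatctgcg

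Counting depth was 49.8 to 131.6 M fragments per library, and 0 counts leave room for a level of 0.0228 to 0.0602 CPM, depending on the library (3 counts each, counting error only). Levels are given as CPM, counts per M counted fragments after scaling by the trimmed mean of M-values (TMM) within a tissue, and each log2 fold change compares heterozygous with WT libraries and has its standard error (SE) from edgeR, n = 3 libraries per group. Ctcf itself averaged 61.4% to 67.2% of the WT level in the heterozygous libraries of the 5 tissues, and its groups did not overlap in any of them. Each tissue carried the markers of its label. The spleen libraries also held markers of other organs that followed genotype, whose part in the spleen values was not tested: 5 hepatocyte markers summed to 32.8 to 42.1 CPM in WT and 0.0900 to 0.344 CPM in heterozygous spleen, and 5 kidney tubule markers to 0.0841 to 0.379 and 11.3 to 23.0 CPM. Muscle also held kidney tubule markers that followed genotype, at 9.51 to 69.4 CPM in WT and 0.0986 to 5.44 CPM in heterozygous libraries. For 4 of these 5 genes every heterozygous library lay below every WT library (6.28% of all genes tested). In kidney, 5 skeletal muscle markers summed to 148 CPM in WT replicate 3 and 187 CPM in heterozygous replicate 3. The other kidney libraries held 0.108 to 0.304 CPM. The part of these traces in the scores was not tested. In bulk tissue, more cells that express a gene and more RNA per cell cannot be told apart.

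A score was formed for each library as the mean, over all 41 members, of the log2 difference from the WT mean of the tissue (CPM with a prior count of 2). In liver the score was 0.06, -0.02 and -0.03 in the WT libraries and 0.65, 0.68 and 0.25 in the heterozygous libraries. In kidney it was -0.04, 0.04 and -0.01 in WT and 0.43, 0.42 and 0.24 in heterozygous libraries. In both organs every heterozygous library lay above every WT library. In muscle the WT scores were 0.13, 0.11 and -0.24 and the heterozygous scores 0.57, 0.29 and 0.29, which also did not overlap. In spleen the WT scores were 0.09, 0.20 and -0.29 and the heterozygous scores 0.27, 0.33 and 0.07. In brain the WT scores were 0.10, -0.16 and 0.07 and the heterozygous scores 0.91, -0.13 and 0.10. The groups overlapped in spleen and brain, and the brain difference came from 1 library, heterozygous replicate 1, which stood at 1.87 times the WT mean while the other two stood at 0.91 and 1.07 times.

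The mean score difference, heterozygous minus WT, was 0.53 in liver, 0.39 in muscle, 0.36 in kidney, 0.29 in brain and 0.22 in spleen on the log2 scale. These are 1.44, 1.31, 1.29, 1.22 and 1.17 times the WT level. Set against the SD pooled over the groups, which was 0.17, 0.19, 0.08, 0.40 and 0.21 in the same order, the difference exceeded the spread in liver, muscle, kidney and, narrowly, spleen, and was under it in brain. Whether the difference varied between tissues was not tested.

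**Figure D1:**
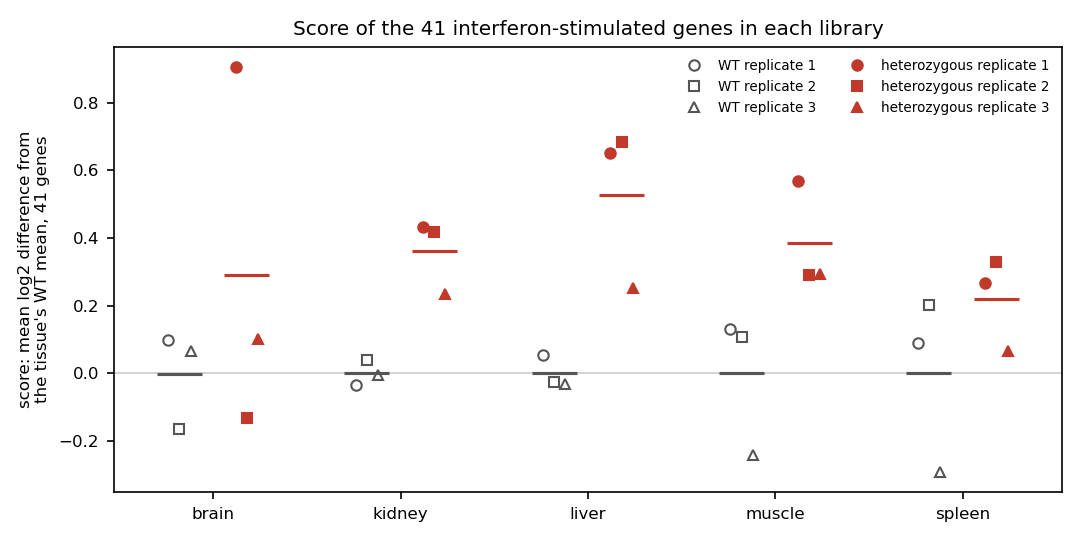
Score of the 41 interferon-stimulated genes in each of 30 libraries, as the mean log2 difference from the WT mean of the tissue on the y axis and tissue on the x axis; open symbols are WT, filled symbols heterozygous, marker shapes replicate numbers and bars group means. The groups do not overlap in kidney, liver and muscle, and in brain heterozygous replicate 1 (0.905) lies far above the other heterozygous libraries (-0.131 and 0.103).

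No single replicate number carried the difference in every tissue. Heterozygous replicate 1 had the highest of the 3 heterozygous scores in 3 of 5 tissues (brain, kidney and muscle), and replicate 2 had it in liver and spleen. Replicate 3 was never the highest, was the lowest in 3 tissues, and its scores lay between 0.066 and 0.293, all above 0. Over the 5 tissues the mean score was 0.566 for heterozygous replicate 1, 0.318 for replicate 2 and 0.190 for replicate 3, against 0.068, 0.033 and -0.101 for the WT replicates. WT replicate 3 was the lowest WT library in 3 tissues, and without it the score difference was 0.265 in muscle and 0.075 in spleen. In brain, all 41 members were highest in heterozygous replicate 1 among the 3 heterozygous libraries, and 37 were highest in it among all 6. Without that library the brain score difference was -0.014, 22 of 41 members had a positive log2 fold change and their median was 0.01. In kidney 17 members were highest in heterozygous replicate 1, 15 in replicate 2 and 7 in replicate 3. In liver the numbers were 13, 22 and 3, with replicate 3 the lowest heterozygous library for 37 members. Leaving out any 1 library kept the score difference between 0.322 and 0.426 in kidney, 0.451 and 0.667 in liver and 0.265 and 0.449 in muscle. In spleen the range was 0.075 to 0.321.

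Member by member, all 41 had a positive log2 fold change in kidney, as had 36 in brain, 36 in spleen, 37 in muscle and 38 in liver. Of all genes tested, 47.6% to 50.1% had one. The median member log2 fold change was 0.56 in liver, 0.35 in kidney, 0.34 in muscle, 0.33 in brain and 0.21 in spleen, and that of all genes tested lay between -0.011 and 0.000. Members whose 3 heterozygous libraries all lay above the 3 WT libraries numbered 24 of 41 (58.5%) in kidney, where 6.15% of all genes tested did so. They numbered 22 (53.7%) in liver against 4.68% of all genes, 13 (31.7%) in muscle against 5.91%, 4 (9.76%) in brain against 3.73% and 4 (9.76%) in spleen against 4.35%. The 13 in muscle include Oas3, which passed the filter there through its heterozygous libraries alone. No member had its groups apart in the lower direction in any tissue. Because the genes were chosen on this contrast, nothing is read from these shares.

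No member passed an adjusted p of 0.05 in any tissue by edgeR's quasi-likelihood test with Benjamini-Hochberg adjustment over all genes tested, where the share of all genes called higher and lower was 0.0128% and 0.00642% in liver, 0.0106% and 0.0106% in kidney, 0.0125% and 0.0125% in muscle, 0.0104% and 0.00522% in brain, and 0.0591% and 0.183% in spleen. At an unadjusted p below 0.05 edgeR gave 27 members in liver, 22 in kidney, 9 in muscle and 2 each in brain and spleen, all of them higher. The matching shares of all genes tested were 2.48%, 4%, 3.67%, 1.39% and 2.55% higher, and 2.08%, 2.44%, 2.78%, 1.57% and 0.972% lower. By DESeq2 with adjusted p, 7 members were higher in kidney (0.502% of all genes), 10 in liver (0.342%) and 2 in muscle (0.648%), and 0 in brain (0.0809%) and spleen (0.537%). By limma-voom the count was 0 in every tissue. Because the members were chosen on this contrast, all these counts are a description and carry no test. Of the 41 members, 29 had a positive log2 fold change in all 5 tissues, 7 in 4 and 5 in 3.

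**Figure D2:**
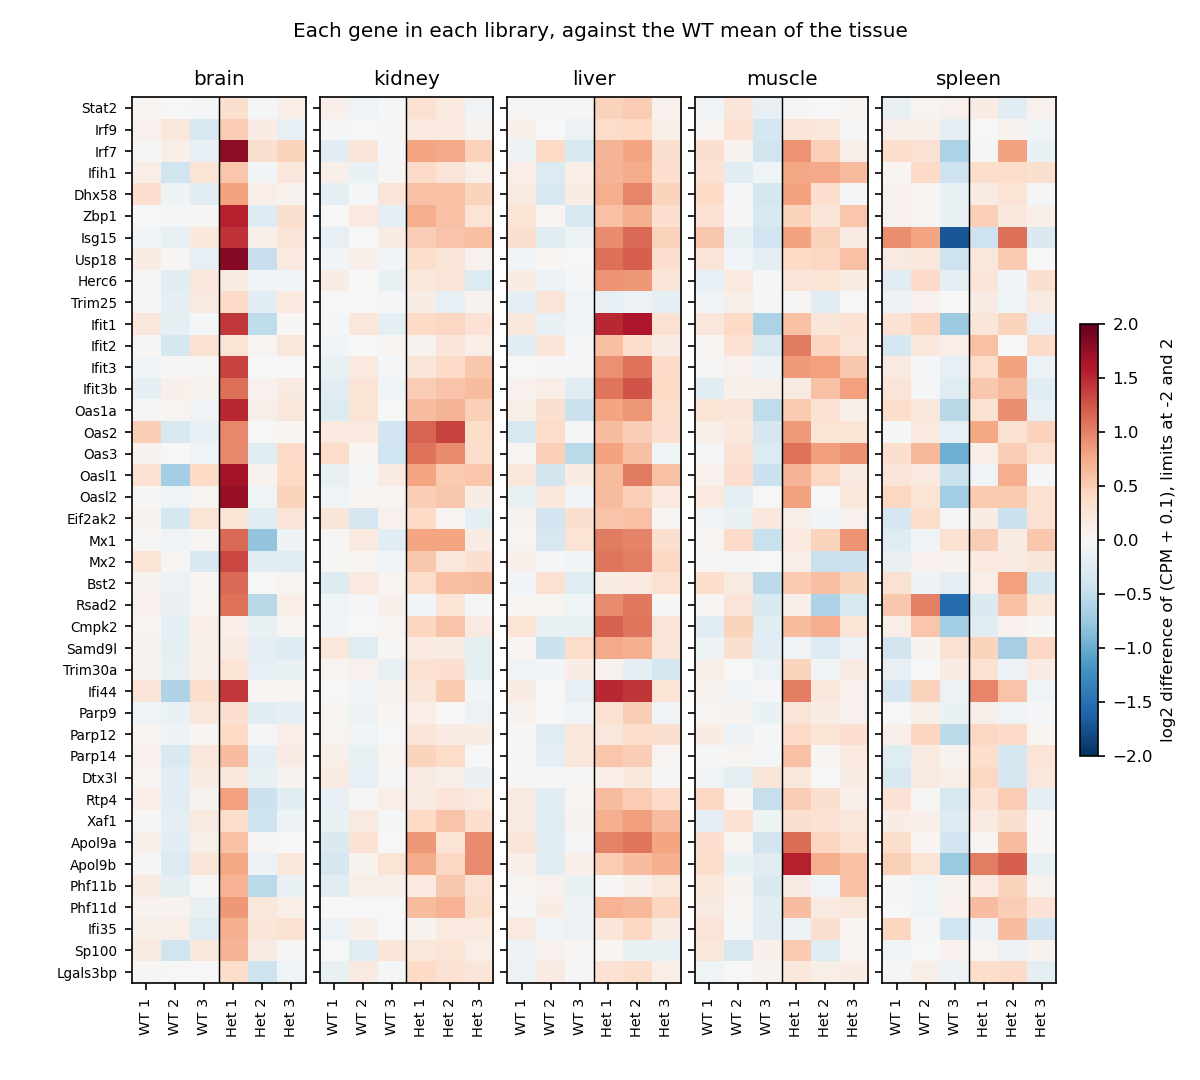
Each of the 41 members (rows, ordered by role) in each library (columns, by tissue and genotype), as the log2 difference of (CPM + 0.1) from the WT mean of the tissue, on a colour scale from -2 to 2. Red fills most rows of heterozygous replicate 1 in brain and of all 3 heterozygous libraries in kidney and liver, and WT replicate 3 of spleen is blue for Isg15, Rsad2 and Oas3.

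Among the transcription factors, Irf7, which amplifies the interferon response and is itself an interferon target, had the widest differences. In brain it stood at 1.97, 2.13 and 1.72 CPM in the WT libraries and 6.95, 2.45 and 2.67 CPM in the heterozygous libraries (log2 fold change 1.03 ± 0.39, SE). Its brain groups did not overlap, yet 1 library held most of the difference, and without heterozygous replicate 1 the log2 fold change was 0.40. In kidney Irf7 stood at 19.6, 26.9 and 22.3 CPM in the WT libraries and 39.6, 38.6 and 31.5 CPM in the heterozygous libraries (log2 fold change 0.67 ± 0.14, SE), again with no overlap. In liver the values were 56.8, 80.6 and 49.6 CPM in the WT libraries and 97.7, 105 and 75.9 CPM in the heterozygous libraries (log2 fold change 0.58 ± 0.20, SE), with 1 WT library above 1 heterozygous library. In muscle Irf7 measured 4.42, 3.70 and 2.70 CPM in the WT libraries and 6.69, 4.97 and 3.86 CPM in the heterozygous libraries (log2 fold change 0.52 ± 0.25, SE), and in spleen 179.7, 173 and 90.9 CPM in the WT libraries and 143, 246 and 128 CPM in the heterozygous libraries (log2 fold change 0.22 ± 0.35, SE). The groups overlapped in liver, muscle and spleen, the muscle value was 0.30 without heterozygous replicate 1, and the spleen value turned to -0.03 without WT replicate 3 and to -0.13 without heterozygous replicate 2. Irf7 exons overlap those of Phrf1, and the counting left out fragments assigned to more than 1 gene. Stat2 and Irf9, which encode parts of ISGF3, differed less, with log2 fold changes between 0.01 and 0.37 for Stat2 and -0.01 and 0.30 for Irf9 over the 5 tissues, both lowest in spleen and highest in liver.

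The cytosolic sensors Ifih1 (MDA5, which binds long double-stranded RNA), Dhx58 (LGP2, a regulator of that sensor) and Zbp1 (a sensor of Z-form nucleic acid) all had groups apart in kidney and liver. Their median log2 fold change was 0.59 in liver, 0.54 in kidney, 0.53 in muscle, 0.36 in brain and 0.27 in spleen. In muscle Ifih1 stood at 4.22, 2.97 and 3.24 CPM in the WT libraries and 5.96, 5.92 and 5.40 CPM in the heterozygous libraries (log2 fold change 0.73 ± 0.16, SE), and in that tissue its heterozygous libraries lay close together above WT. In spleen Zbp1 stood at 63.2, 61.9 and 54.9 CPM in the WT libraries and 83.3, 69.2 and 64.1 CPM in the heterozygous libraries (log2 fold change 0.27 ± 0.15, SE), 1 of the 4 spleen members without overlap, and the log2 fold change was 0.15 without heterozygous replicate 1.

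Isg15 encodes a ubiquitin-like protein that is attached to other proteins during the interferon response. In kidney it stood at 7.97, 8.99 and 10.02 CPM in the WT libraries and 12.7, 13.4 and 13.6 CPM in the heterozygous libraries (log2 fold change 0.56 ± 0.11, SE), and in liver at 26.98, 18.4 and 19.97 CPM in the WT libraries and 41.4, 47.5 and 29.7 CPM in the heterozygous libraries (log2 fold change 0.86 ± 0.21, SE). In both tissues its groups did not overlap. In brain Isg15 measured 1.80, 1.68 and 2.20 CPM in the WT libraries and 5.31, 2.06 and 2.27 CPM in the heterozygous libraries (log2 fold change 0.76 ± 0.36, SE), where heterozygous replicate 1 stood alone and the rest reached at most 2.27 CPM. Without that library its log2 fold change was 0.20. In muscle the values were 2.99, 1.81 and 1.51 CPM in the WT libraries and 3.62, 2.83 and 2.29 CPM in the heterozygous libraries (log2 fold change 0.47 ± 0.29, SE), and the log2 fold change was 0.28 without WT replicate 3 and 0.81 without WT replicate 1. Spleen was unlike the rest, with 271, 246 and 43.4 CPM in the WT libraries and 107, 308 and 116 CPM in the heterozygous libraries (log2 fold change -0.08 ± 0.71, SE). WT replicate 3 was the lowest spleen library, the group ranges overlapped almost fully, and the log2 fold change turned positive, to 0.15 to 0.29, when any of 4 of the 6 libraries was left out. Usp18, the protease that removes ISG15 and damps receptor signalling, stood in liver at 17.7, 18.8 and 18.4 CPM in the WT libraries and 39.6, 41.8 and 23.1 CPM in the heterozygous libraries (log2 fold change 0.93 ± 0.21, SE). In muscle Usp18 stood at 1.72, 1.37 and 1.24 CPM in the WT libraries and 1.91, 1.95 and 2.19 CPM in the heterozygous libraries (log2 fold change 0.48 ± 0.19, SE), and in both tissues its groups did not overlap. The ligases Herc6 and Trim25, both linked to ISG15 transfer, differed from each other: Herc6 reached 0.70 ± 0.19 (log2 fold change, SE) in liver with no overlap, whereas Trim25 had -0.17 ± 0.14 there and lay between -0.17 and 0.13 over the tissues.

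The IFIT proteins bind viral RNA and hinder its translation, and their genes lie in 1 cluster on chromosome 19. In liver Ifit1 stood at 21.7, 16.6 and 17.4 CPM in the WT libraries and 52.5, 56.6 and 22.8 CPM in the heterozygous libraries (log2 fold change 1.24 ± 0.31, SE), the highest log2 fold change of any member there. Heterozygous replicates 1 and 2 held most of it, and replicate 3 lay just above the WT range. In kidney Ifit1 stood at 10.1, 12.2 and 9.07 CPM in the WT libraries and 13.8, 13.8 and 12.7 CPM in the heterozygous libraries (log2 fold change 0.36 ± 0.13, SE), with no overlap. In brain it measured 3.59, 2.68 and 3.01 CPM in the WT libraries and 8.34, 2.14 and 3.14 CPM in the heterozygous libraries (log2 fold change 0.54 ± 0.45, SE), and without heterozygous replicate 1 the log2 fold change was -0.23. In muscle the Ifit1 values were 2.71, 3.05 and 1.45 CPM in the WT libraries and 3.48, 2.72 and 2.81 CPM in the heterozygous libraries (log2 fold change 0.32 ± 0.28, SE) and in spleen 36.7, 40.4 and 18.1 CPM in the WT libraries and 35.3, 40.8 and 26.6 CPM in the heterozygous libraries (log2 fold change 0.11 ± 0.32, SE), with overlap in both. The muscle value was 0.06 without WT replicate 3 and 0.52 without WT replicate 2. The spleen value was -0.17 without WT replicate 3 and -0.04 without heterozygous replicate 2.

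Ifit3 had its groups apart in kidney, liver and muscle. In muscle it stood at 3.64, 3.84 and 3.33 CPM in the WT libraries and 6.54, 6.42 and 5.25 CPM in the heterozygous libraries (log2 fold change 0.75 ± 0.14, SE), the largest difference there among members with a mean of at least 1 CPM and no overlap. In liver Ifit3 stood at 26.1, 26.1 and 25.2 CPM in the WT libraries and 48.6, 54.9 and 33.5 CPM in the heterozygous libraries (log2 fold change 0.83 ± 0.18, SE), and in kidney at 31.2, 39.6 and 33.6 CPM in the WT libraries and 40.8, 45.03 and 50.4 CPM in the heterozygous libraries (log2 fold change 0.38 ± 0.12, SE). In brain the values were 8.28, 8.68 and 8.72 CPM in the WT libraries and 22.1, 8.54 and 8.65 CPM in the heterozygous libraries (log2 fold change 0.61 ± 0.34, SE): the other 5 libraries lay between 8.28 and 8.72 CPM and heterozygous replicate 1 stood far above them, and without it the log2 fold change was 0.01. In spleen Ifit3 measured 39.95, 34.7 and 31.3 CPM in the WT libraries and 45.4, 61.4 and 32.3 CPM in the heterozygous libraries (log2 fold change 0.39 ± 0.25, SE), with overlap, and without heterozygous replicate 2 the log2 fold change was 0.13. Its neighbour Ifit3b stood in liver at 7.29, 7.53 and 5.91 CPM in the WT libraries and 14.5, 16.6 and 9.11 CPM in the heterozygous libraries (log2 fold change 0.96 ± 0.23, SE) and in muscle at 3.08, 3.91 and 3.95 CPM in the WT libraries and 4.12, 5.49 and 6.49 CPM in the heterozygous libraries (log2 fold change 0.56 ± 0.20, SE). Those 2 genes cannot be counted as independent, because 51.2% of the 50-base stretches of Ifit3 transcripts also occur in Ifit3b, and fragments that fit both were not counted. Ifit2, the fourth member of the family, had groups apart only in kidney among the 5 tissues, at 0.15 ± 0.09 (log2 fold change, SE).

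The 2′-5′ oligoadenylate synthetases (OAS) sense double-stranded RNA and activate RNase L, and the OAS-like proteins and the kinase PKR (Eif2ak2) act beside them. In kidney Oas2 stood at 2.22, 2.22 and 1.46 CPM in the WT libraries and 4.46, 5.10 and 2.53 CPM in the heterozygous libraries (log2 fold change 1.03 ± 0.29, SE), the highest kidney log2 fold change of the 41. In spleen it stood at 32.8, 38.6 and 29.8 CPM in the WT libraries and 57.4, 41.3 and 45.96 CPM in the heterozygous libraries (log2 fold change 0.52 ± 0.18, SE) and in muscle at 1.78, 1.90 and 1.27 CPM in the WT libraries and 2.998, 1.99 and 1.98 CPM in the heterozygous libraries (log2 fold change 0.49 ± 0.24, SE), and its groups were apart in all 3 tissues. The muscle value was 0.28 without heterozygous replicate 1. In kidney Oasl1 stood at 2.72, 2.97 and 3.38 CPM in the WT libraries and 5.29, 4.38 and 4.47 CPM in the heterozygous libraries (log2 fold change 0.64 ± 0.16, SE). Oas1a stood there at 4.25, 6.22 and 5.13 CPM in the WT libraries and 7.90, 8.31 and 7.18 CPM in the heterozygous libraries (log2 fold change 0.58 ± 0.16, SE), though 57.6% of its 50-base stretches also occur in Oas1g. Oas3 had the highest log2 fold change of any member in any tissue, 2.47 ± 0.72 in muscle, at very low levels of 0.0192, 0.0484 and 0 CPM in the WT libraries and 0.158, 0.115 and 0.128 CPM in the heterozygous libraries. At such counts the size of the fold depends on the prior count. In muscle Oas3 passed the filter through its heterozygous libraries alone, so this rank follows in part from the filter. Eif2ak2 lay between 0.01 and 0.39 over the tissues, with overlap in all 5.

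The restriction factors ranged from members with wide differences to members with small ones. Mx2, a dynamin-like GTPase, stood in liver at 5.68, 5.11 and 5.05 CPM in the WT libraries and 11.2, 10.9 and 7.06 CPM in the heterozygous libraries (log2 fold change 0.88 ± 0.20, SE) and in spleen at 8.17, 9.56 and 9.45 CPM in the WT libraries and 10.4, 10.2 and 10.7 CPM in the heterozygous libraries (log2 fold change 0.20 ± 0.15, SE), with no overlap in either. The spleen value was 0.13 without WT replicate 1. Ifi44, an interferon target with a GTP-binding motif, stood in liver at 8.83, 8.05 and 7.13 CPM in the WT libraries and 22.97, 21.7 and 9.65 CPM in the heterozygous libraries (log2 fold change 1.18 ± 0.30, SE). In muscle Ifi44 stood at 1.40, 1.27 and 1.30 CPM in the WT libraries and 2.79, 1.55 and 1.41 CPM in the heterozygous libraries (log2 fold change 0.54 ± 0.28, SE), where heterozygous replicate 1 held most of the difference and without it the log2 fold change was 0.17. Bst2 (tetherin, which holds budding virions at the cell surface) had groups apart in kidney (0.52 ± 0.13) and muscle (0.48 ± 0.21), in log2 fold change with SE. Rsad2 (viperin), Samd9l and Trim30a overlapped in all 5 tissues, and each had a negative log2 fold change in 2 of them. Rsad2 varied between tissues, with 0.375 ± 0.388 in brain and 0.067 ± 0.112 in kidney (log2 fold change, SE). In liver its log2 fold change was 1.007 without heterozygous replicate 3. In muscle Rsad2 had -0.27 ± 0.23 and Mx2 -0.27 ± 0.30, the lowest 2 values of any member in any tissue.

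The mono-ADP-ribosyltransferases Parp9, Parp12 and Parp14 and the ubiquitin ligase Dtx3l, which pairs with PARP9, had small differences, with family medians between 0.11 and 0.28 on the log2 scale over the 5 tissues. Parp12 had its groups apart in kidney, liver and muscle, Parp9 in muscle alone of the 5, and the other two in none. Of the remaining 9 members, Phf11d was the single one of the 41 whose groups were apart in all 5 tissues. In kidney Phf11d stood at 8.09, 7.99 and 7.95 CPM in the WT libraries and 12.4, 13.1 and 10.3 CPM in the heterozygous libraries (log2 fold change 0.58 ± 0.12, SE), and in spleen at 4.65, 4.35 and 4.89 CPM in the WT libraries and 7.11, 6.53 and 5.66 CPM in the heterozygous libraries (log2 fold change 0.47 ± 0.18, SE). Its log2 fold change was 0.61 ± 0.17 in liver, 0.49 ± 0.27 in brain and 0.36 ± 0.20 in muscle (SE). The brain value rested on heterozygous replicate 1, with 0.556, 0.550 and 0.464 CPM in the WT libraries and 1.04, 0.627 and 0.583 CPM in the heterozygous libraries, and was 0.21 without it; the muscle value was 0.22 without heterozygous replicate 1. Apol9b, an apolipoprotein L family member, stood in kidney at 2.02, 2.71 and 3.14 CPM in the WT libraries and 4.41, 3.49 and 5.07 CPM in the heterozygous libraries (log2 fold change 0.72 ± 0.21, SE). Apol9a stood in liver at 63.5, 45.8 and 52.5 CPM in the WT libraries and 106, 112 and 91.97 CPM in the heterozygous libraries (log2 fold change 0.94 ± 0.15, SE), a level at which all 3 heterozygous libraries lay well above WT. Fragments of these paralogues can be confused, since 52.3% of the 50-base stretches of Apol9b also occur in Apol9a. In brain Ifi35, an interferon-induced leucine zipper protein, stood at 2.03, 2.06 and 1.57 CPM in the WT libraries and 3.14, 2.24 and 2.33 CPM in the heterozygous libraries (log2 fold change 0.43 ± 0.18, SE), and without heterozygous replicate 1 the log2 fold change was 0.27. Rtp4 and Xaf1 had groups apart in kidney and liver, Lgals3bp in kidney and muscle, Phf11b in kidney, and Sp100 in none.

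Over the tissues, 1 member had its groups apart and higher in all 5, 0 in 4, 9 in 3, 12 in 2 and 11 in 1. Of the 12996 genes tested in all 5 tissues, 0.0385% were apart and higher in 5, 0.0923% in 4, 0.446% in 3, 2.59% in 2 and 14.9% in 1, and since the rule used this contrast nothing is read from the comparison. The 8 with none were Parp14, Rsad2, Eif2ak2, Sp100, Samd9l, Dtx3l, Trim30a and Trim25. A fit of all 30 libraries with tissue as a term gave each gene 1 shared genotype coefficient. All 41 coefficients were positive, with a median of 0.38 on the log2 scale against 0.01 for all genes tested, and 7 members passed an adjusted p of 0.05 (edgeR, quasi-likelihood, Benjamini-Hochberg), where 0.165% of all genes were called higher and 0.0289% lower. The 7 were Apol9b (0.77 ± 0.15, SE), Apol9a (0.77 ± 0.13), Ifit3b (0.61 ± 0.12), Ifit3 (0.61 ± 0.11), Oas2 (0.60 ± 0.13), Phf11d (0.52 ± 0.08) and Ifih1 (0.44 ± 0.09). This fit treats the 5 libraries of a mouse as independent, and like the rest of the genotype contrast it describes genes chosen on it. The number passing was 0 without heterozygous replicate 1 in all tissues, 2 without replicate 2 and 10 without replicate 3, where the share of all genes called higher was 0.0365%, 0.0523% and 0.139%. Without WT replicate 1, 2 or 3 it was 3, 1 and 1, with shares of 0.0768%, 0.0687% and 0.065%. It was 0 without kidney (0.0553% of all genes), 1 without liver (0.0457%), 2 without muscle (0.0587%), 5 without brain (0.0797%) and 7 without spleen (0.125%). With the replicate number as a block it was 11 (0.231%). The median coefficient stayed between 0.29 and 0.48 under all of these.

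Spleen libraries differed in how long and short genes were represented. The median log2 deviation of the longest genes minus that of the shortest (outer quartiles of all genes by exon length) was -0.32, 0.13 and 0.08 in WT replicates 1 to 3 and 0.15, -0.38 and 0.22 in heterozygous replicates 1 to 3. WT replicate 1 and heterozygous replicate 2 thus stood apart from the other 4, 1 in each genotype. The members followed this split by exon length: 17 of the 21 with exons at or below the median length of 3927 bases correlated negatively with that index over the 6 spleen libraries, and 13 of the 20 longer ones positively. At the ends were Ifi35 (r = -0.93) and Bst2 (r = -0.88), and Parp14 (r = 0.97), Samd9l (r = 0.96) and Stat2 (r = 0.96), as a description over 6 libraries of both genotypes. In heterozygous replicate 2 the score of the shorter members was 0.56 and that of the longer members 0.08. In heterozygous replicate 3 the same scores were -0.05 and 0.19. The part of this length pattern in the spleen values was not tested. In kidney, heterozygous replicate 3 had the lowest index (-0.25) and scores of 0.41 for shorter and 0.05 for longer members. The score difference of shorter against longer members was 0.65 and 0.40 in liver, 0.47 and 0.29 in muscle, 0.46 and 0.26 in kidney, 0.38 and 0.21 in brain, and 0.25 and 0.19 in spleen, so both sets had a positive difference in every tissue.

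**Figure D3:**
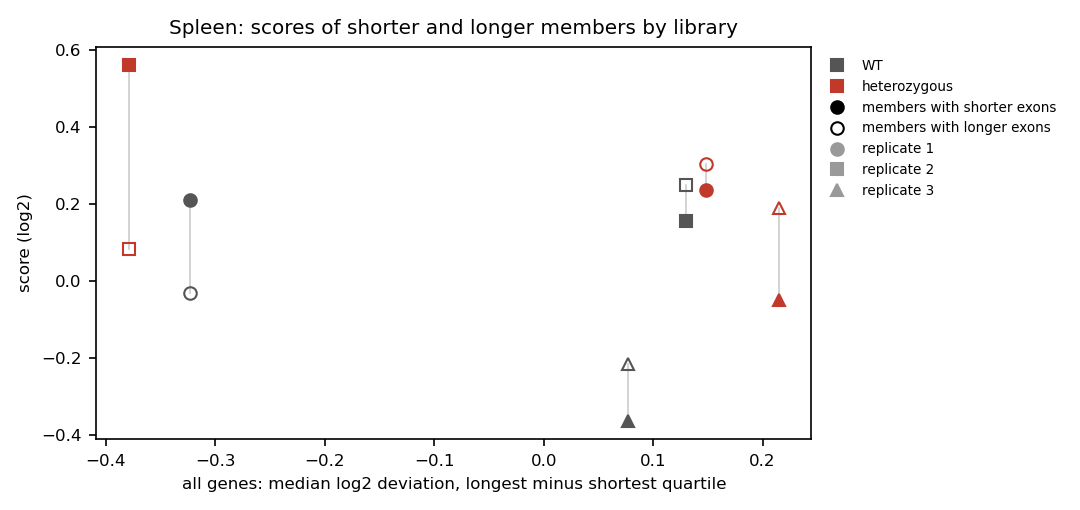
Spleen score of the 21 members with shorter exons (filled) and the 20 with longer exons (open) on the y axis, against the long minus short index of all genes on the x axis, for 6 libraries joined by vertical lines. In the 2 libraries with an index below -0.3 the shorter members lie above the longer ones, by the widest gap in heterozygous replicate 2 (0.561 and 0.082).

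Markers of immune cells were read beside these values. In muscle 4 leukocyte markers (Ptprc, Coro1a, Cd52 and Laptm5) summed to 4.78 to 8.92 CPM in WT and 9.22 to 9.66 CPM in heterozygous libraries, so the sums did not overlap, and 0 of the 4 genes were apart one by one. In kidney they summed to 59.6 to 66.9 and 66.4 to 77.1 CPM, with 1 of 4 genes apart and higher. In liver the sums were 46.7 to 74.7 CPM in WT and 51.5 to 55.7 CPM in heterozygous libraries, with no gene apart. The 6 macrophage markers summed to 3.81 to 6.47 and 5.77 to 10.1 CPM in muscle. In kidney the sums were 71.6 to 84.9 and 80.6 to 90.3 CPM, and in liver 285 to 460 and 296 to 337 CPM. Those apart and higher numbered 1, 2 and 0 of 6 in muscle, kidney and liver, and those apart and lower 0, 0 and 1. Of all genes tested, 5.91%, 6.15% and 4.68% were apart and higher and 6.28%, 5.28% and 4.31% lower. In brain the sums were 144 to 148 CPM in WT and 137.5 to 139.9 CPM in heterozygous libraries. There 1 of 6 was apart and lower (4.1% of all genes), as in spleen (2.29%). In brain, heterozygous replicate 1, the library with the high score, had a neutrophil marker sum of 10.97 CPM over 6 genes, against 1.07 to 4.48 CPM in the other 5, a leukocyte sum of 164 CPM against 145 to 164 CPM, and a microglia sum of 229 CPM against 225 to 264 CPM. Plasmacytoid dendritic cells are a main source of interferon alpha. The 5 genes listed as their markers (Siglech, Ccr9, Klk1, Pacsin1 and Cox6a2) summed to 62.7 to 83.9 CPM in WT spleen. In heterozygous spleen they summed to 74.2 to 95.9 CPM, with none apart. With scaling over all WT libraries they summed to 1510 CPM in kidney, 1640 in muscle and 48.3 in spleen. The sum is therefore not particular to these cells. Heterozygous spleen also held kidney tubule markers, whose part in this sum was not tested. In spleen the erythroid sum over 6 genes ran from 14507 to 91673 CPM in WT and 21153 to 77995 CPM in heterozygous libraries, and was lowest in WT replicate 3. No gene of the leukocyte, macrophage, neutrophil, microglia, plasmacytoid dendritic cell and erythroid lists passed the adjusted threshold in any tissue by edgeR, and none was at 0 counts in all libraries of a tissue. The part of these cells in the scores was not tested.

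The members' levels in WT tissues were a contrast that their choice did not use, and here tests apply. Levels per exon length (RPKM, CPM per kilobase of exon, TMM-scaled over the 15 WT libraries) had a median over the 41 members of 10.8 in spleen, 7.01 in liver, 2.42 in kidney, 1.27 in muscle and 0.462 in brain. The highest tissue was spleen for 23 members, liver for 16, kidney for 2 (Phf11d and Ifi44) and neither brain nor muscle for any. In spleen the highest member was Isg15, at 164 ± 108 RPKM (SD, n = 3), followed by Rsad2 at 82.2 ± 53.7, Bst2 at 56.9 ± 9.75, Sp100 at 43.2 ± 3.75 and Samd9l at 36.8 ± 9.69. The wide SD of Isg15 and Rsad2 came from WT replicate 3, at 40.2 and 23.5 RPKM.

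Liver led for Bst2 at 327 ± 70.05 RPKM, Apol9b at 111 ± 12.8, Apol9a at 51.5 ± 9.34, Lgals3bp at 48.8 ± 5.30, Trim25 at 27.6 ± 4.81, Ifit3 at 22.2 ± 1.10 and Stat2 at 21.8 ± 0.825 (SD, n = 3). It also led, at under 20 RPKM, for Parp9, Parp12, Dtx3l, Ifit1, Usp18, Oasl1, Ifih1, Ifit3b and Mx2. The Apol9 pair was the most tissue-bound. Apol9a had a spleen over liver log2 fold change of -9.52 ± 0.33 (SE, edgeR adjusted p = 4.84e-12), and Apol9b one of -7.80 ± 0.34 (adjusted p = 3.82e-11). In the opposite direction Rsad2 had 4.15 ± 0.44 (adjusted p = 8.68e-07) and Sp100 3.80 ± 0.20 (adjusted p = 2.89e-10). Spleen and liver did not pass the test of their difference for Irf7, Stat2, Dhx58, Ifit1, Oasl1, Eif2ak2, Mx2, Dtx3l, Rtp4 and Ifi35, so their order there is not resolved. Kidney and liver did not pass the test of their difference for Phf11d (liver over kidney log2 fold change -0.21 ± 0.17, SE, edgeR adjusted p = 0.333) and Ifi44 (-0.21 ± 0.24, adjusted p = 0.496).

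**Figure D4:**
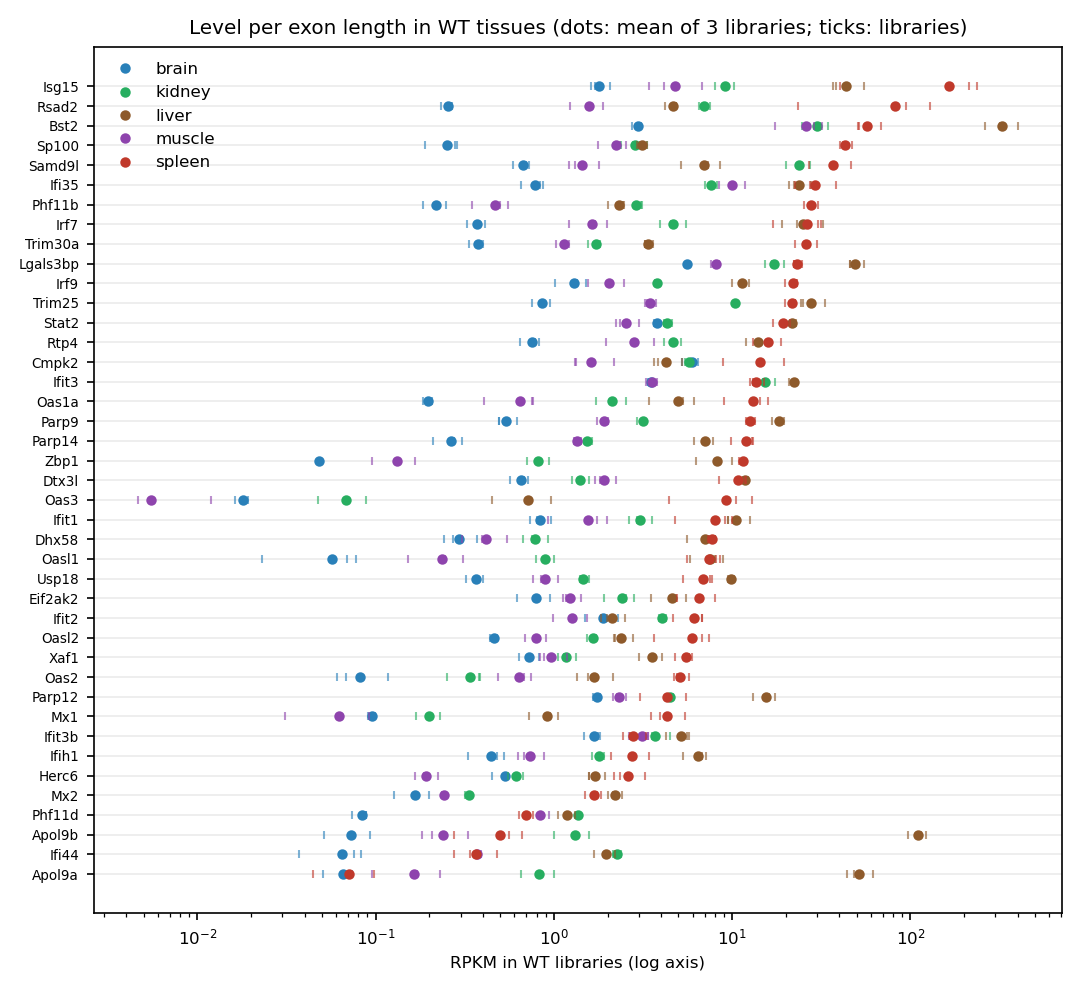
Level of each member per exon length in WT tissues, with RPKM on a logarithmic x axis and the 41 members on the y axis ordered by spleen level; dots are means of 3 libraries and ticks single libraries, and the 1 muscle library at 0 counts for Oas3 has no tick. Brain and muscle dots lie at the low end for most members, spleen dots lead for 23, and the Apol9a and Apol9b liver dots stand far to the right of their other tissues.

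Over all 41 members, spleen exceeded brain for 40 (97.6%, against 37% of all genes tested), with Apol9a the exception. Liver exceeded brain for 39 (33.3% of all genes) and kidney exceeded brain for 38 (36%), and no member was lower in any of these 3 contrasts, where 42.8%, 39.9% and 35.5% of all genes were lower. Muscle was below liver for all 41 members (31.9% of all genes were lower) and below kidney for 31 (35.9%). Muscle was above kidney for Oas2 and Dtx3l (28.5%). Spleen exceeded muscle for 37 members (38.1%) and was below it for Apol9a (37.2%). Spleen exceeded kidney for 34 (36.3%) and was below it for Ifi44, Apol9a, Apol9b and Phf11d (39.2%). Liver exceeded kidney for 32 (24.7%) and was below it for Ifit2 and Samd9l (29.4%). Muscle exceeded brain for 31 (32.5%) and was below it for Stat2, Herc6, Ifit2 and Cmpk2 (39.9%). Spleen against liver was divided, with 18 members higher (37.7%) and 13 lower (35.2%). All these counts are at an adjusted p below 0.05 by edgeR's quasi-likelihood test over 15 WT libraries.

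The scaling set part of these results in liver and muscle, where 5 hepatocyte markers summed to 258000 TMM-scaled CPM and 5 skeletal muscle markers to 257000. Scaling by total counts in place of TMM moved the median log2 fold change of all genes from -0.15 to -1.24 in liver against brain, from -0.19 to -1.45 in muscle against brain and from 0.04 to 1.20 in spleen against liver. The median of the members moved with it, from 3.85 to 2.76, from 1.28 to 0.01 and from 0.18 to 1.33. Under total counts the members divided into 12 higher and 16 lower in muscle against brain, 32 higher and 5 lower in spleen against liver, and 27 higher and 11 lower in liver against kidney. The highest tissue was then spleen for 32 members, liver for 5 (Bst2, Apol9a, Apol9b, Parp12 and Ifih1, which led in liver under all 3 scalings tried) and kidney for 4. The counts for spleen against brain, spleen against kidney, kidney against brain and muscle against liver were the same under both.

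Of 134 other genes of the interferon pathway, 103 to 113 were tested per tissue and 0 passed an adjusted p of 0.05 for genotype by edgeR in any tissue, with the lowest adjusted p at 0.390 in liver and 0.395 in muscle. At an unadjusted p below 0.05 edgeR gave 20 higher and 0 lower in liver, 15 and 1 in kidney, 10 and 2 in muscle, 5 and 0 in brain and 1 and 0 in spleen, beside shares of all genes tested of 2.48% and 2.08%, 4% and 2.44%, 3.67% and 2.78%, 1.39% and 1.57%, and 2.55% and 0.972%. By DESeq2 there was 1 in brain (Helz2; 0.0809% of all genes were higher) and 5 in liver (Ifi27, Oas1b, Ly6a, Gbp3 and Tgtp1; 0.342%), all of them higher, and by limma-voom 0. Groups did not overlap for 21 genes higher and 2 lower in kidney, 18 and 1 in liver, 13 and 0 in muscle, 8 and 1 in brain and 6 and 0 in spleen. The shares of all genes tested that did so are given above for the higher direction, and were 5.28%, 4.31%, 6.28%, 4.1% and 2.29% for the lower one, in the same order of tissues.

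The interferon ligands themselves were hardly seen. Of 21 ligand genes, 14 to 19 had 0 counts in all 6 libraries of a tissue, Ifnb1 reached at most 1 count in any library, and Ifng alone was abundant enough to test, in kidney and spleen, without passing. Among 15 receptors and signal transducers the median log2 fold change lay between 0.00 and 0.07 over the 5 tissues, and among 14 nucleic acid sensors and adaptors between -0.05 and 0.10. The 50 other type I interferon targets had medians of 0.22 in liver, 0.14 in kidney and 0.13 in brain. In muscle and spleen the medians were 0.11 and 0.05. In the order liver, kidney, brain, muscle and spleen, 14, 15, 5, 7 and 3 genes were apart and higher and none lower. Of all genes tested, 4.68%, 6.15%, 3.73%, 5.91% and 4.35% were apart and higher and 4.31%, 5.28%, 4.1%, 6.28% and 2.29% lower. The 23 interferon gamma-inducible GTPases and targets had medians of 0.34, 0.11, 0.28, 0.15 and 0.18 in the same order. The 11 negative regulators lay between -0.05 and 0.11.

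In all, 15 of the 134 genes of these lists had groups apart and higher in at least 2 tissues. None had them apart and lower in 2. Of genes tested in all 5 tissues, 2.59% were apart and higher in 2, 0.446% in 3, 0.0923% in 4 and 0.0385% in 5. No such share was formed for the lower direction. The lists were chosen with earlier results of these data known, so nothing is read from these counts. Gbp3, a guanylate-binding GTPase, stood in liver at 20.3, 22.8 and 17.8 CPM in the WT libraries and 47.6, 49.2 and 25.9 CPM in the heterozygous libraries (log2 fold change 1.01 ± 0.24, SE), and was also apart in brain (0.68 ± 0.25) and muscle (0.49 ± 0.20). Ifi27, a mitochondrial interferon target, stood in liver at 109, 105 and 79.3 CPM in the WT libraries and 166, 164 and 171 CPM in the heterozygous libraries (log2 fold change 0.77 ± 0.15, SE), and was apart in kidney (0.35 ± 0.11) and muscle (0.50 ± 0.15) too. Trim12c was apart in kidney (0.17 ± 0.10), liver (0.52 ± 0.21) and spleen (0.15 ± 0.13). The RNA sensor Tlr7 was apart in kidney (0.61 ± 0.18) and muscle (1.42 ± 0.46), and Ly6a (Sca-1, a surface antigen) in liver (1.22 ± 0.26) and spleen (0.45 ± 0.18). None of these 5 passed the adjusted threshold by edgeR in any tissue; Tlr7 was also apart in brain in the lower direction (-0.27 ± 0.13), all in log2 fold change with SE.

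Across the 30 libraries, each taken as its deviation from the tissue mean, the members moved with one another to differing degrees. The correlation of a member with the mean of the other 40 had a median of 0.749, was at least 0.5 for 35 of 41, and was highest for Ifit1 (0.927) and Usp18 (0.906). It was lowest for Trim25 (0.222), Samd9l (0.268) and Dtx3l (0.294). Among 9557 other genes with a mean of at least 1 CPM in each tissue, those most like the score included H2-Q4 (0.831), Irgm1 (0.778), Tap1 (0.763), Fdxacb1 (0.753), Ifi27 (0.732), B2m (0.726), H2-D1 (0.706), Gbp2 (0.695) and Mettl25 (0.690). Of these, H2-Q4, H2-D1, B2m and Tap1 serve antigen presentation on MHC class I. Over the 6 libraries of a single tissue the likeness was uneven: the correlation was -0.60 for Gbp2 in kidney, 0.26 for H2-D1 and 0.41 for B2m in liver, 0.31 for Tap1 in spleen and 0.39 for Mettl25 in muscle, whereas H2-Q4 lay between 0.73 and 0.96 and Fdxacb1 between 0.60 and 0.95 over the 5 tissues. These values describe libraries that share genotype, tissue and preparation.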

How the data were processed

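RNA-seq of 30 libraries (5 tissues, 3 WT and 3 Ctcf+/- each) was analysed from counts per gene deposited by the authors, in 1 table per tissue. Per the file headers, the authors' counter was featureCounts 1.5.0-p3 with Ensembl release 86 of GRCm38; it ignored strand and skipped fragments with several alignments or several genes. The submitters' processing notes also name FastQC, STAR and DESeq2; the STAR version and read length are not given in the sources used here. Overlapping, antisense and near-identical genes are therefore uncertain. Symbols matched 48349 of 48709 genes by identifier.

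The members and gene lists were chosen with earlier results of these data known. Genotype was fitted in each tissue with edgeR 4.0.16 (R 4.3.3): filterByExpr, TMM, the quasi-likelihood test and Benjamini-Hochberg adjusted p over all genes tested, called at 0.05. All 41 members passed the filter in every tissue, Oas3 in muscle through its heterozygous libraries alone. WT tissues were compared in 1 fit of 15 libraries, with no term for mouse. Members named with values in each tissue were up to 6 with the largest absolute log2 fold change among those with groups apart and a mean of at least 1 CPM, plus Irf7, Isg15, Ifit1 and Ifit3; in WT the 5 highest in spleen and those not highest there; of the other pathway genes up to 5 apart in at least 2 tissues. The 15 promoter matches, the members with 0 or 5 tissues apart and those at the ends of a range were named after their values were seen. Of the 10 genes most like the score, 1 is not reported here.

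Alternatives were DESeq2 1.42.0, limma-voom (limma 3.58.1), other scalings, filters and prior counts, a replicate block, and each library left out. The script was tested on simulated counts. Deviations from the group means correlated between WT and heterozygous libraries that share a number at r = 0.207 to 0.537 in brain and 0.19 to 0.212 in kidney. The labels do not say that a number pairs libraries. The main fits had no term for it. Blocking on it as an alternative left the member count there at 0, which says nothing about its effect. Among all genes, those called higher and lower went from 2 and 1 to 12 and 10 in brain. In kidney they went from 2 and 2 to 13 and 8. No 2 replicates of a group agreed within sampling noise (lowest chi-square per degree of freedom 15.4).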

Additional observations from a re-analysis of the deposited data

How the results depend on the processing

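The counts of members and of other pathway genes called within a tissue were 0, so a count that stayed at 0 says nothing about stability; 4 of 70 recomputed member counts and 5 of 70 pathway counts were above 0. Of 75 recomputed scores 72 moved by less than 1 SD. The count of the shared fit moved by over 1.5 times in 9 of 14 alternatives. Of 602 recomputed log2 fold changes of 43 named members and tissues 11 changed sign, and with 1 library left out 18 of the 43 moved by over 1.5 times (6 each in brain, muscle and spleen and 0 in kidney and liver). DESeq2 called 7 members in kidney, 10 in liver and 2 in muscle, and of other pathway genes 1 in brain and 5 in liver, where edgeR called 0. The member calls describe genes chosen on this contrast. With each library left out in turn, the liver count of members ran from 0 to 5 and that of pathway genes from 0 to 1. A fit of all 30 libraries called 3 pathway genes in muscle (Tlr7, Socs1 and Epsti1), and a replicate block 1 (Ifi27l2a). For WT and heterozygous libraries that share a number, deviations correlated at r = 0.051 to 0.277 in liver and 0.083 to 0.271 in muscle. The range was -0.472 to 0.475 in spleen and -0.363 to 0.503 across WT tissues. With so few libraries these values cannot settle whether a number pairs them. The replicate block left the member count at 0 in every tissue. Among all genes, those called higher and lower went from 2 and 2 to 74 and 44 in muscle. In spleen they went from 11 and 34 to 0 and 0, and in liver from 2 and 1 to 4 and 3. The block took the member count of the shared fit from 7 to 11. In that fit, leaving out 1 replicate number gave 0 to 10 members, and leaving out kidney, liver or muscle gave 0, 1 and 2. With 1 library left out, the score difference ran from -0.014 to 0.501 in brain. The exon-length sets, added after seeing the data, gave 0.459 (shorter) and 0.261 (longer) in kidney. With 1 library left out, the log2 fold change of Ifit1 in brain ran from -0.23 (without heterozygous replicate 1) to 0.89. In spleen that of Irf7 ran from -0.13 (without heterozygous replicate 2; -0.03 without WT replicate 3) to 0.40, that of Ifit1 from -0.17 (without WT replicate 3; -0.04 without heterozygous replicate 2) to 0.31, and that of Isg15 from -0.75 (without heterozygous replicate 2) to 0.29, positive with 4 of the 6 left out singly (0.15 to 0.29, 0.18 without heterozygous replicate 1). Isg15 in spleen was 0.13 with limma-voom and 0.15 with the replicate block. In WT, total counts gave 2 members lower in liver against brain, 12 higher and 16 lower in muscle against brain, 11 lower in liver against kidney, 0 higher in muscle against kidney, 32 higher and 5 lower in spleen against liver, and 0 lower in spleen against muscle. With only the 6 libraries of the pair, 4 were lower in liver against kidney and 0 in spleen against muscle. The count higher in muscle against kidney was 1 with limma-voom and with a filter of at least 1 count, and 1 to 2 with a library left out; that lower in spleen against muscle was 0 to 1. The cause of each change was not tested, except that leaving out libraries leaves fewer samples. With 3 libraries per group, differences near the spread between replicates cannot be resolved, and low members such as Oas3 in muscle rest on few counts.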
